A study of Mus musculus with 12 samples.

Results

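Inhibitory checkpoints are the receptor and ligand pairs that dampen T cell responses. The 10 genes described here encode 5 such receptors (Pdcd1, Ctla4, Havcr2, Lag3 and Tigit) and 5 ligands of checkpoint receptors (Cd274, Pdcd1lg2, Cd80, Cd86 and Lgals9). They were chosen by name, 10 of the 19057 genes that the platform annotation names, and every probe with 1 of these symbols was taken, which gave 16 of the 45281 probes on the array, 6 for receptors and 10 for ligands. Whole pancreatic tumours of adult female C57BL/6J mice were profiled on 12 Illumina BeadArrays. Syngeneic tumour cells in Matrigel had been implanted surgically into the pancreas of every mouse, and once tumours were established the chow carried either vehicle (Vehicle, 4 tumours) or a compound that blocks CSF1R, the receptor for macrophage colony-stimulating factor (CSF1Ri, 5 tumours), for 8 days. All animals were perfused with heparinised saline and all tumours were digested with collagenase. The labels leave out the tumour cell line, the name of the inhibitor and how much was given. Repeat arrays exist for 3 tumours (Vehicle 1, Vehicle 3 and CSF1Ri 1), and both arrays of such a tumour were averaged.

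PD-L1, encoded by Cd274, and PD-L2, encoded by Pdcd1lg2, bind the receptor PD-1 (Pdcd1) on activated T cells. CTLA-4 (Ctla4) competes with the costimulatory receptor CD28 for CD80 and CD86 on antigen-presenting cells. TIM-3 (Havcr2), for which galectin-9 (Lgals9) has been described as a ligand, LAG-3 (Lag3), which binds MHC class II, and TIGIT (Tigit), which binds the poliovirus receptor, are further brakes on T cells and NK cells. In tumours Cd274 is made by cancer cells as well as by myeloid cells and is induced by interferon gamma, whereas CD80 and CD86 are typical of dendritic cells, macrophages and B cells. Macrophages need signals through the targeted receptor, and the comparison addresses how its blockade alters the tumour.

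Values are normalised log2 intensities per tumour, and means stand with their SD over the 4 Vehicle and the 5 CSF1Ri tumours. A probe counts as detected on an array at a detection p-value under 0.05, and it was tested when detected on every array of at least 4 tumours. Of the 16 checkpoint probes, 14 were tested and reported 9 of the 10 genes. The single Pdcd1 probe and 1 of the Cd80 probes were too dim. The labels call the tumours repeats and do not state that each came from its own animal, so the tests measure the spread between these tumours. Between 16219 and 17847 probes were detected per array. The targeted gene Csf1r was at 7.46 ± 0.29 in Vehicle and 6.24 ± 0.32 in CSF1Ri tumours, without overlap (limma adjusted p = 0.0498). This call sat at the threshold and was lost in 15 of 22 alternatives, among them the test without the filter on dim probes (limma adjusted p = 0.175), while the log2 fold change stayed between -1.47 and -0.81. The epithelial markers were present, with a mean level of 10.93 to 11.69 over the 8 of 9 that were tested (Epcam was not), and residual acinar tissue varied widely, from 5.66 in CSF1Ri 1 to 13.22 in CSF1Ri 5. Vehicle 1 stood apart, with the highest mean of the erythroid markers (11.66, against 8.78 to 10.79 in the other 8 tumours). Log2 fold changes without it are given for Cd274, Cd86, Cd80 and Lag3. For the genes of the marker and pathway lists they are not given singly, though several of these also had an extreme value in Vehicle 1.

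No checkpoint probe passed the test. At a limma adjusted p under 0.05, 0 of the 14 checkpoint probes were called, where 24 of all 16606 tested probes (0.145%) were, 24 lower and 0 higher. The 2 genes with the widest differences were both ligands and lay in opposite directions, Cd274 with a higher mean and Cd86 with a lower mean in CSF1Ri tumours. At an unadjusted p under 0.05 these were the only checkpoint genes, with 4 probes of 14, and 7.58% of all tested probes reached that level. 3 of the 4 probes report the same gene, Cd86. The groups overlapped for all 16 checkpoint probes, while 1.5% of all tested probes lay fully higher and 1.32% fully lower in CSF1Ri tumours.

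**Figure D1:**
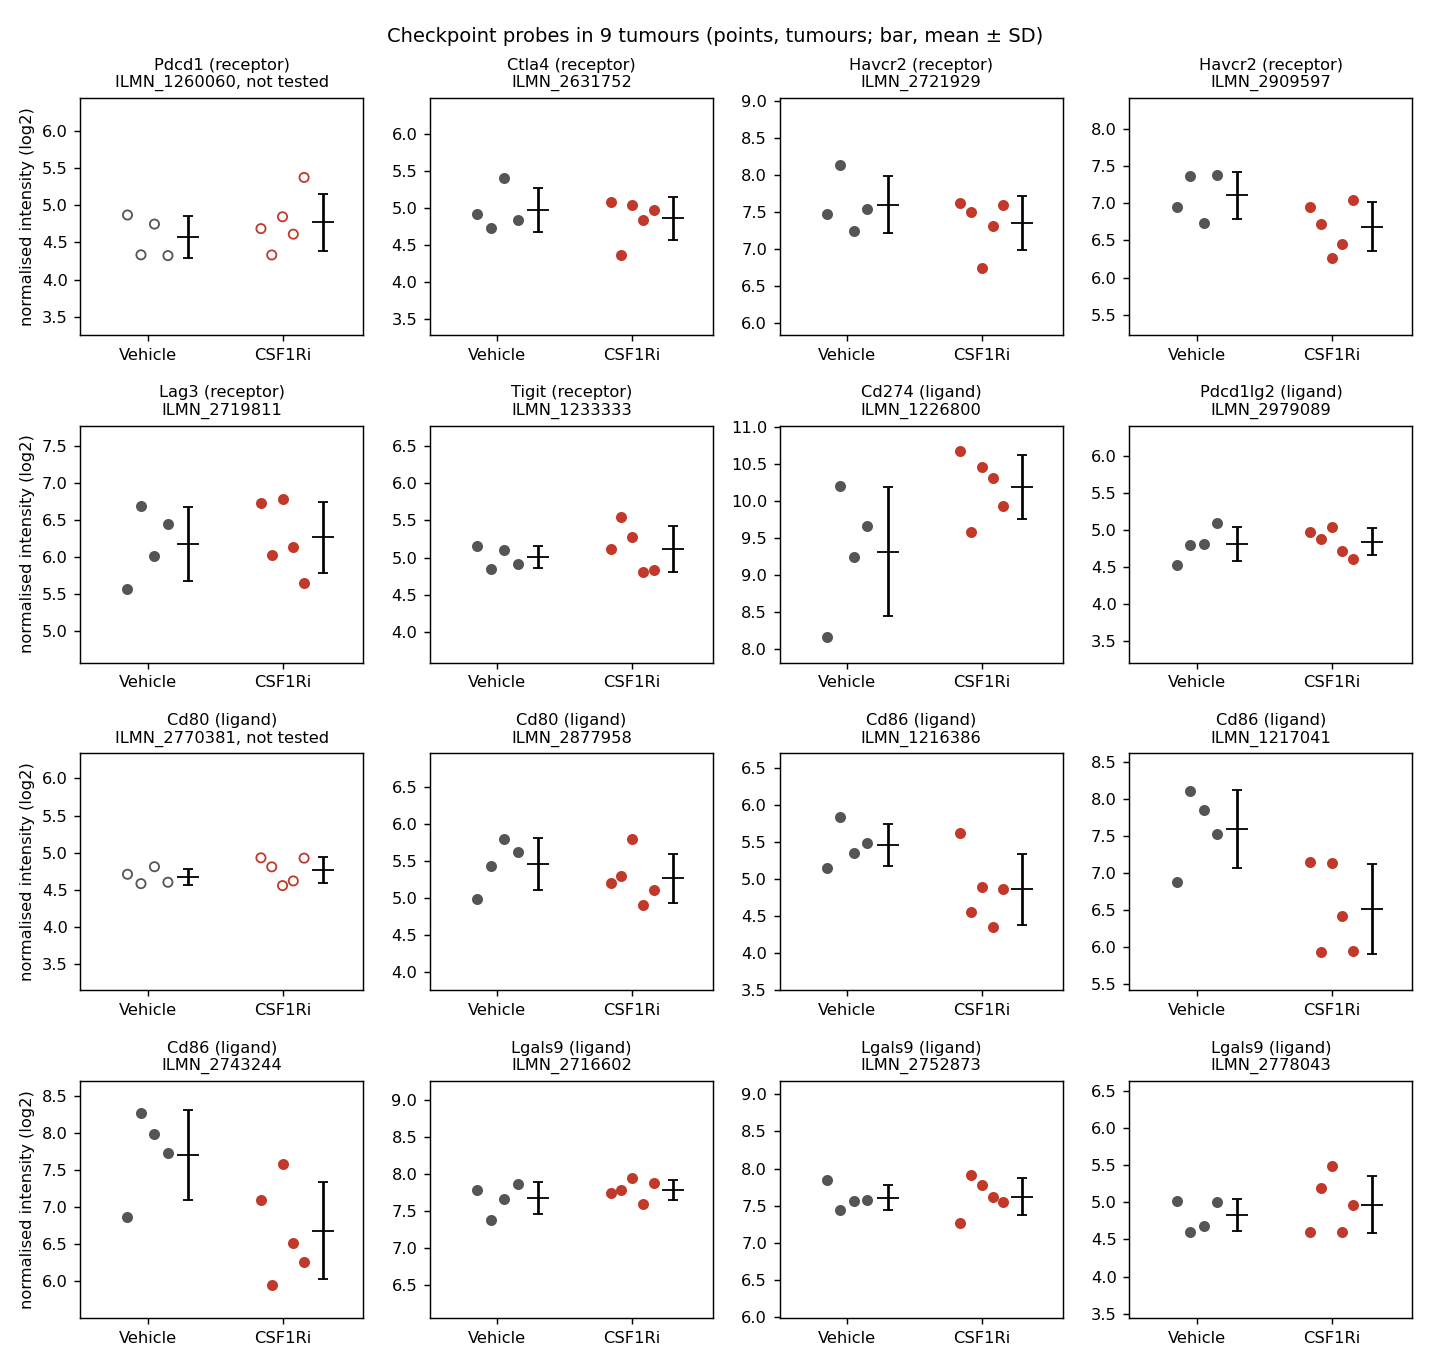
Normalised intensity (log2) of the 16 checkpoint probes, with 1 point per tumour, grey for Vehicle (n = 4) and red for CSF1Ri (n = 5); bars give mean ± SD, open points mark the 2 probes not tested, and every panel spans the same height on the log2 scale. The Cd274 panel shows the lone low point of Vehicle 1 at 8.16, and the 3 Cd86 panels show lower CSF1Ri points that still overlap the Vehicle range.

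The promoters of the 2 ligands Cd274 and Lgals9 are shown because both genes are known interferon targets, and because the tumours with high Cd274 were also those with high Irf1, as described further on. The stretches cover the 250 bases before a transcript start in the RefSeq promoter table (GRCm38.p6), which for Cd274 lies inside the span annotated for the whole gene, Cd274 on the plus strand at chr19:29367188-29367437 and Lgals9 on the minus strand at chr11:78984925-78985174, each written in the direction of its gene. Capitals mark matches to the searched motifs, the core bound by interferon regulatory factors (AANNGAAA, which preceded by GA makes the core of the interferon response element) and the STAT site (TTCNNNGAA), on either strand.
Cd274: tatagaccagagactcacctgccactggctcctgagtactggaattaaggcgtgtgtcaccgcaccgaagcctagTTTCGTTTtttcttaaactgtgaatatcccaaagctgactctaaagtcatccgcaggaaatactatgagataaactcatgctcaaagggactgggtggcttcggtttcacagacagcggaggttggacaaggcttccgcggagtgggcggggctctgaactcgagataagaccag
Lgals9: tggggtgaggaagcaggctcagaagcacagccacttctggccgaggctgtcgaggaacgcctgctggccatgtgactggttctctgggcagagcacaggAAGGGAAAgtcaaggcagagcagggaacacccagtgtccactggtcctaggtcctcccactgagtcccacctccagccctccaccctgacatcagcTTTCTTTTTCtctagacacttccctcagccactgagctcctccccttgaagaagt
The promoter table held 8 of the 10 genes. The shorter core was found in 4 of the 8 (Cd274, Lgals9, Pdcd1lg2 and Pdcd1) and in 21.3% of 32851 promoters of the same length. In Cd274 it lay on the opposite strand 175 to 168 bases before the start, and in Lgals9 at 151 to 144 bases and, on the opposite strand, at 55 to 48 bases. The longer core overlaps the last of these, at 55 to 46 bases in Lgals9, and was found in 1 of the 8 and in 2.98% of all promoters. The STAT motif was found in 0 of the 8 and in 7.02% of all promoters. The shorter core was added after the sequences had been seen. These are matches of letters in a short window and show neither use nor disuse of a site.

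Cd274, the gene of PD-L1, was the checkpoint ligand with the higher mean in CSF1Ri tumours. Its single probe (ILMN_1226800) was detected on all 12 arrays. It read 8.16, 10.20, 9.24 and 9.66 in Vehicle 1 to 4 and 10.67, 9.59, 10.46, 10.31 and 9.92 in CSF1Ri 1 to 5. The Vehicle tumours spread over a wide range with Vehicle 1 lowest, while 3 of the 5 CSF1Ri tumours lay above every Vehicle tumour and CSF1Ri 2 and 5 lay inside the Vehicle range. The means were 9.32 ± 0.87 and 10.19 ± 0.43, a 1.83-fold difference (log2 fold change 0.87, SE 0.37, 95% interval 0.06 to 1.69 before adjustment). The difference did not pass (limma adjusted p = 0.618). It depended in size on Vehicle 1, without which the log2 fold change was 0.49 (limma adjusted p = 0.756). On leaving out each tumour it ran from 0.49 to 1.17.

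The arrays differ in brightness, with a median unscaled intensity of 107 to 162 in the dimmer 6 and 180 to 272 in the brighter 6. Each of these sets holds 3 tumours of each group, and Vehicle 1, Vehicle 3 and CSF1Ri 1 are in both. The log2 fold change of Cd274 was 1.05 on the dimmer arrays and 1.27 on the brighter arrays, against 0.87 over the 9 tumours. Both sets hold Vehicle 1, the lowest tumour in Cd274, and CSF1Ri 1, the highest, so the sets are not independent of each other. The repeat hybridisations of Cd274 differed from the first by 0.28 in Vehicle 1, by -0.23 in Vehicle 3 and by less than 0.01 in CSF1Ri 1, all smaller than the SD between tumours. The low reading of Vehicle 1 was therefore present on both of its arrays.

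Pdcd1lg2, the gene of PD-L2, was close to the detection limit. Its probe was detected on 3 of 6 Vehicle and 4 of 6 CSF1Ri arrays and in 4 of 9 tumours. It read 4.52, 4.80, 4.81 and 5.09 in Vehicle and 4.98, 4.87, 5.05, 4.71 and 4.60 in CSF1Ri tumours, which overlap fully. The log2 fold change was 0.03 (95% interval -0.28 to 0.35), an interval that the added offset of 16 narrows for dim probes (limma adjusted p = 0.991).

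The receptor of both ligands, Pdcd1, was detected on 3 of 6 arrays in each group and in only 3 tumours, and it was not tested. Its values were 4.87, 4.33, 4.75 and 4.32 in Vehicle and 4.69, 4.33, 4.85, 4.61 and 5.38 in CSF1Ri tumours, with CSF1Ri 5 highest. At this signal a difference between the groups was not detectable.

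Cd86 was the ligand with the lower mean in CSF1Ri tumours, and its 3 probes gave the same direction. Probe ILMN_1217041, detected on all 12 arrays, read 6.88, 8.10, 7.85 and 7.52 in Vehicle 1 to 4 and 7.15, 5.93, 7.14, 6.41 and 5.94 in CSF1Ri 1 to 5. Vehicle 2, 3 and 4 lay above every CSF1Ri tumour, and Vehicle 1 lay below CSF1Ri 1 and 3. The means were 7.59 ± 0.53 and 6.51 ± 0.61, a 2.11-fold difference that did not pass (log2 fold change -1.07, SE 0.33, 95% interval -1.80 to -0.35 before adjustment, limma adjusted p = 0.409).

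Probe ILMN_2743244, the brightest for Cd86, read 6.86, 8.26, 7.98 and 7.72 in Vehicle and 7.10, 5.95, 7.58, 6.52 and 6.26 in CSF1Ri tumours. The order was nearly that of the first probe (r = 0.98 over the 9 tumours), and its log2 fold change was -1.03 (limma adjusted p = 0.501). The third probe, ILMN_1216386, was dimmer and was detected on 6 Vehicle and 4 of 6 CSF1Ri arrays. It read 5.15, 5.84, 5.36 and 5.49 in Vehicle and 5.62, 4.56, 4.89, 4.36 and 4.86 in CSF1Ri tumours. Here CSF1Ri 1 lay inside the Vehicle range and the other 4 CSF1Ri tumours lay below every Vehicle tumour, with a log2 fold change of -0.60 (limma adjusted p = 0.578).

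Vehicle 1 narrowed the Cd86 difference, in contrast to Cd274. Without it the log2 fold changes of the 3 probes were -1.31, -1.31 and -0.70, in the order above (limma adjusted p = 0.215, 0.267 and 0.528). On the dimmer arrays they were -0.90, -0.86 and -0.42, and on the brighter arrays -0.89, -0.86 and -0.38. Their repeat hybridisations differed by at most 0.35 in size.

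**Figure D2:**
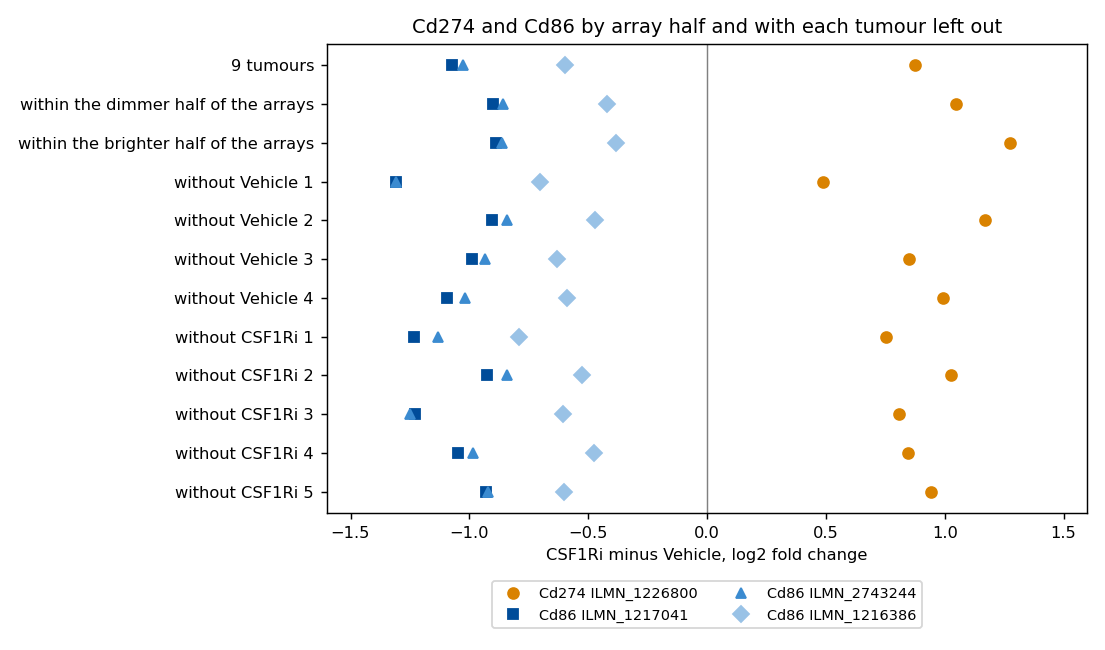
Log2 fold change (CSF1Ri minus Vehicle, horizontal axis) of the Cd274 probe and the 3 Cd86 probes over the 9 tumours, on the dimmer 6 and the brighter 6 arrays, and with each tumour left out. All points of Cd274 lie right of 0, between 0.49 and 1.27, and all points of Cd86 lie left of 0, between -1.31 and -0.38.

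In whole tumours, fewer cells of a type and less RNA per cell cannot be told apart. Markers of macrophages were examined beside Cd86. Of 15 listed symbols 12 were tested. Cd163 was too dim, Cd68 was not analysed here, and Emr1 is an older symbol of Adgre1, which was tested. All 12 had a negative log2 fold change, with a median of -1.30. At a limma adjusted p under 0.05, 4 fell (Cx3cr1, Mrc1, Ms4a7 and Csf1r), where 0.194% of all 9788 genes were called. The other 8 did not pass. Under the alternatives the call of Cx3cr1 held in the 21 that fitted its probe, and that of Mrc1 in 19 of 22. The call of Ms4a7 held in 11 of 22 and that of Csf1r in 7 of 22, all 4 genes with negative log2 fold changes throughout. Cx3cr1 was detected on 6 of 6 Vehicle but 1 of 6 CSF1Ri arrays, so it met the filter mainly through the Vehicle tumours. The stricter filter removed it, and its CSF1Ri values (4.50 to 5.05) lay near the detection limit. The mean of the markers was 7.72 to 8.30 in Vehicle and 6.45 to 7.18 in CSF1Ri tumours, and their summed intensity was 4962 to 8761 and 1812 to 3932. Dendritic cell markers gave only 4 tested of 12, with a median log2 fold change of -0.43, a mean of 6.71 to 7.11 against 6.00 to 6.68 and a summed intensity of 953 to 1288 against 689 to 1118. The defining genes Flt3, Zbtb46, Xcr1 and Clec9a were too dim to test. Cd83, a marker of mature dendritic cells, was at 6.74 ± 0.48 and 5.51 ± 0.51, without overlap, and did not pass (log2 fold change -1.23, limma adjusted p = 0.223). The part of these cells in the Cd86 values was not tested.

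Cd80, which shares its receptors with Cd86, showed a smaller difference. Its tested probe (ILMN_2877958) read 4.99, 5.43, 5.79 and 5.62 in Vehicle and 5.20, 5.29, 5.79, 4.91 and 5.10 in CSF1Ri tumours. The groups overlapped over nearly their whole range, and the log2 fold change was -0.20 (95% interval -0.65 to 0.25, limma adjusted p = 0.935). It was -0.35 without Vehicle 1 (limma adjusted p = 0.750), -0.33 without CSF1Ri 3, -0.11 without CSF1Ri 4 and -0.085 without Vehicle 3. The dim second probe was detected on 2 of 6 Vehicle and 3 of 6 CSF1Ri arrays, with means of 4.67 ± 0.11 and 4.77 ± 0.17. The 2 Cd80 probes thus had opposite signs, within the spread of the tumours.

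Ctla4, the receptor that takes up CD80 and CD86, was detected on 5 of 6 arrays in each group and was dim throughout. It read 4.92, 4.73, 5.40 and 4.84 in Vehicle and 5.08, 4.37, 5.04, 4.84 and 4.97 in CSF1Ri tumours. Vehicle 3 was highest and CSF1Ri 2 lowest, and the log2 fold change was -0.11 (95% interval -0.52 to 0.29, limma adjusted p = 0.968). Its repeat hybridisations differed by up to 0.56 (Vehicle 3), more than the SD of 0.30 between Vehicle tumours.

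Havcr2, the gene of TIM-3, is carried by exhausted T cells and also by dendritic cells and macrophages. Both of its probes were detected on all 12 arrays. Probe ILMN_2909597 read 6.96, 7.37, 6.73 and 7.38 in Vehicle and 6.95, 6.72, 6.26, 6.45 and 7.04 in CSF1Ri tumours. CSF1Ri 3 and 4 and, by a narrow margin, CSF1Ri 2 lay below every Vehicle tumour. The log2 fold change was -0.42 (95% interval -0.86 to 0.01, limma adjusted p = 0.676), with -0.39 on the dimmer and -0.19 on the brighter arrays.

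The brighter Havcr2 probe, ILMN_2721929, read 7.47, 8.14, 7.24 and 7.54 in Vehicle and 7.62, 7.51, 6.74, 7.30 and 7.60 in CSF1Ri tumours. CSF1Ri 3 was again the lowest tumour, and the log2 fold change was -0.24 (95% interval -0.73 to 0.25, limma adjusted p = 0.918). For this probe the sign turned on the brighter arrays (0.23, against -0.47 on the dimmer arrays), and its repeat in Vehicle 3 differed by -0.61 from the first array.

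Lgals9, the gene of galectin-9, varied little between tumours. Probe ILMN_2716602 read 7.79, 7.38, 7.66 and 7.87 in Vehicle and 7.75, 7.79, 7.94, 7.60 and 7.88 in CSF1Ri tumours. All values except that of Vehicle 2 lay within a narrow band, and the log2 fold change was 0.12 (95% interval -0.17 to 0.40, limma adjusted p = 0.942). The other probes gave 0.01 (95% interval -0.31 to 0.34) and, on a dim probe detected on 4 and 3 of 6 arrays, 0.14 (95% interval -0.29 to 0.58).

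Lag3 was detected on all 12 arrays and had nearly equal means. It read 5.56, 6.69, 6.01 and 6.44 in Vehicle and 6.72, 6.03, 6.79, 6.14 and 5.64 in CSF1Ri tumours. High and low tumours occurred in both groups, with Vehicle 1 lowest and CSF1Ri 3 highest, and the log2 fold change was 0.09 (95% interval -0.54 to 0.71, limma adjusted p = 0.988). The sign turned when Vehicle 1 was left out (-0.12).

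Tigit was detected on all 12 arrays at low signal. It read 5.16, 4.84, 5.10 and 4.92 in Vehicle and 5.12, 5.55, 5.27, 4.81 and 4.84 in CSF1Ri tumours. Only CSF1Ri 2 and 3 lay above the Vehicle range, and the log2 fold change was 0.11 (95% interval -0.25 to 0.47, limma adjusted p = 0.961). The dimmer arrays gave 0.47 and the brighter arrays -0.32, and the repeats differed by up to 0.50 in size, so the direction is not resolved by these arrays.

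Set against each other, receptors and ligands both centred near 0. Of the 5 tested receptor probes 2 had positive and 3 negative log2 fold changes, with a median of -0.11 and a range of -0.42 to 0.11. Of the 9 tested ligand probes 5 were positive and 4 negative, with a median of 0.01 and a range of -1.07 to 0.87. The median over all 16606 tested probes was 0.01, and 53.4% of them were positive. By 1 probe per gene, the medians were -0.01 over 4 receptors and 0.03 over 5 ligands, and 0.01 over all 9788 genes. The ligands thus covered a wider range than the receptors, of which fewer probes were tested. Signal level differed as well: the receptors Ctla4 and Tigit were dim, as was the ligand Pdcd1lg2, while Cd274 was bright. The added offset understates fold changes of dim probes, so the ranges are not free of signal level. The difference between the classes was not tested because genes are not replicates.

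**Figure D3:**
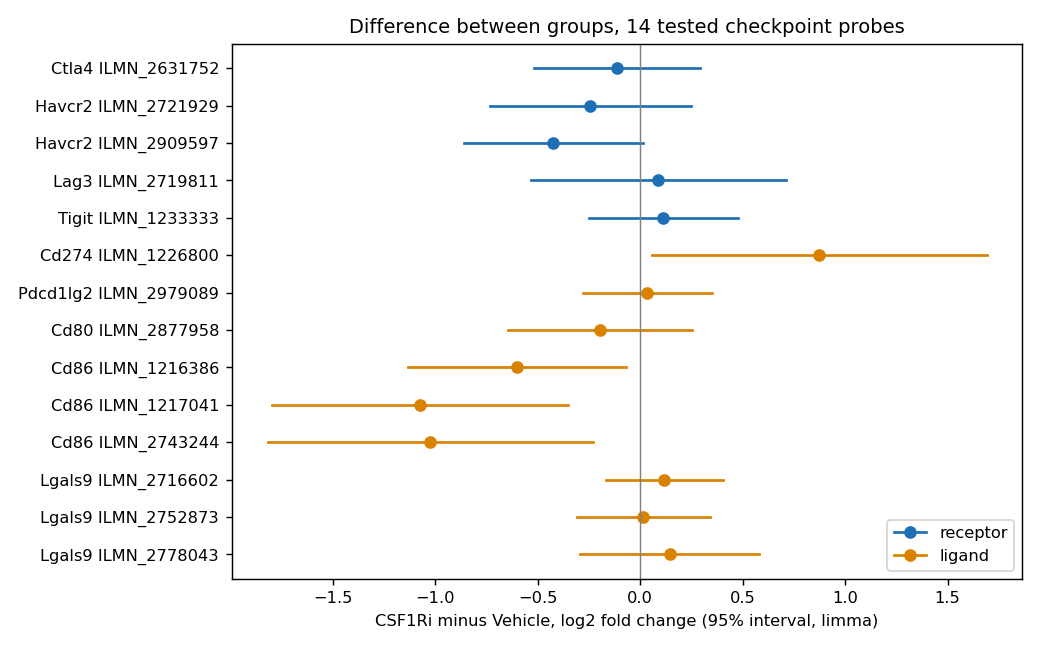
Log2 fold change (CSF1Ri minus Vehicle, horizontal axis) with its 95% interval from limma, before adjustment, for the 14 tested checkpoint probes, receptors in blue and ligands in orange. The 3 Cd86 intervals lie left of 0, the Cd274 interval (0.06 to 1.69) lies right of 0, and the 10 others include 0.

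The markers of the lymphocytes that carry the receptors gave no call. For T cells 9 of 18 listed genes were tested, while Cd4, Cd8a, Cd5 and Cd247 were too dim, and the other 5 were not analysed here. 0 passed, 7 were positive and the median log2 fold change was 0.29. Their mean was 6.61 to 7.37 in Vehicle and 6.99 to 8.00 in CSF1Ri tumours, and their summed intensity 3143 to 3882 and 3018 to 5368. Cd3e, a subunit of the T cell receptor complex, was at 6.99 ± 0.61 and 7.80 ± 0.67 (limma adjusted p = 0.657). Of the 6 listed regulatory T cell genes 3 were tested, all without a call, while Il2ra and Ikzf2 were too dim. The lineage factor gene Foxp3 was at 9.04 ± 0.08 and 9.02 ± 0.11 (log2 fold change -0.02). Its probe was brighter than that of Cd3e and nearly flat over the tumours (8.88 to 9.15). Whether it reports regulatory T cells here was not tested. For NK cells Klrd1, an NK receptor subunit, had 0.65 (limma adjusted p = 0.606) and the pore-forming protein gene Prf1 0.39, while Ncr1, Klrb1c, Klre1 and Eomes were too dim. Vehicle 1 was the lowest of all tumours in Cd3e (6.18) and in Klrd1 (5.04), which widens both differences. The part of these cells in the receptor values was not tested.

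Around the checkpoints, 4 lists of related genes were examined, and 0 of their members passed the test in either direction, where 19 of all 9788 genes (0.194%) did. By genes, 1.46% lay fully higher and 1.42% fully lower in CSF1Ri tumours. The interferon gamma pathway that induces PD-L1 had 16 genes tested, 11 positive and 5 negative, with a median log2 fold change of 0.26. Irf1, the transcription factor downstream of interferon gamma, was at 11.77 ± 0.49 and 12.34 ± 0.18 (log2 fold change 0.57, limma adjusted p = 0.527). The chemokine gene Cxcl10 had 1.16 (limma adjusted p = 0.563), and Ifng itself was at 5.37 ± 0.49 and 6.05 ± 0.50 (0.68, limma adjusted p = 0.612). Cxcl10 read 6.63 in Vehicle 1, against 8.70 to 10.14 in the others, so its difference depends in size on that tumour. The mean of this list was lowest in Vehicle 1 (8.01, against 8.36 to 8.72 in the other 8 tumours), the tumour that was also lowest in Cd274. Its part in the Cd274 difference was not tested.

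Of the costimulatory receptors and their ligands 8 of 14 were tested, 5 positive and 3 negative, with a median of 0.11. Cd28, the costimulatory partner of CTLA-4, was too dim. Tnfrsf9, the gene of the T cell costimulator 4-1BB, read 6.97 ± 0.41 in Vehicle and 7.77 ± 0.15 in CSF1Ri tumours, without overlap, but did not pass (log2 fold change 0.80, limma adjusted p = 0.210). Its ligand gene Tnfsf9 had 0.27 (limma adjusted p = 0.709), and Cd40, the costimulatory receptor of antigen-presenting cells, had -0.62 (limma adjusted p = 0.748).

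Among 16 tested genes of other inhibitory receptors and ligands, 5 were positive and 11 negative, with a median of -0.19. The named genes were Fgl1, a further LAG-3 ligand (log2 fold change -0.42, no overlap, detected on 5 of 6 Vehicle and 1 of 6 CSF1Ri arrays, limma adjusted p = 0.355), Sirpa, the myeloid receptor for CD47 (-0.82, limma adjusted p = 0.502), and Laptm5, a lysosomal protein of leukocytes (-0.66, limma adjusted p = 0.542). Of 8 tested phosphatase and kinase genes that act below the receptors, 5 were positive and 3 negative (median 0.03). The inositol phosphatase gene Inpp5d was at 5.88 ± 0.40 and 4.89 ± 0.34, without overlap (-0.99, limma adjusted p = 0.207). Ptpn6, the gene of the phosphatase SHP-1, had -0.81 (limma adjusted p = 0.538), and the T cell kinase gene Zap70 had 0.62 (limma adjusted p = 0.628). Inpp5d, Ptpn6, Sirpa and Laptm5 are also expressed in myeloid cells, and the part of these cells in their values was not tested.

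For each checkpoint gene with a tested probe, the 3 named genes with the most similar profile over the 9 tumours were found by Pearson's r. The search covered 14375 to 14377 probes. These r values are the highest of that many, share the normalisation and the arrays, and are given as a description only. The profile of Cd274 was closest to Apol9b (r = 0.98), Irf1 (r = 0.98) and Klrd1 (r = 0.98), and 49 probes had r above 0.9. Irf1 read 11.17 in Vehicle 1, 11.59 in Vehicle 3, 12.06 in Vehicle 4 and 12.27 in Vehicle 2, the same order as Cd274. For Irf1 r was 0.94 without Vehicle 1, 0.92 without Vehicle 1 and CSF1Ri 1, the 2 tumours farthest from the median, and 0.97 for the deviations from the group means. Irf1 was picked for its high r over these same tumours, so a high r within the groups is partly fixed by that choice and is no separate support.

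Cd86, by its brightest probe, was closest to Slc11a1 (r = 0.98), a metal transporter gene of phagocytes, Clec4n (r = 0.98), the gene of the myeloid lectin Dectin-2, and Slc46a3 (r = 0.97), and 104 probes had r above 0.9. Clec4n was at 9.88 ± 0.61 and 8.95 ± 0.60 (log2 fold change -0.93, limma adjusted p = 0.520). Its r with Cd86 was 0.99 without Vehicle 2 and CSF1Ri 2 and 0.96 for the deviations from the group means. The other checkpoint genes had fewer close profiles, with 3 to 20 probes above 0.9, and their closest genes were Jkamp for Tigit (r = 0.98), Myl4 for Pdcd1lg2 (r = 0.98), Rbm48 for Havcr2 (r = 0.97), Lamtor2 for Cd80 (r = 0.96), Arf5 for Lgals9 (r = 0.95), C130026I21Rik for Lag3 (r = 0.95) and 4930503L19Rik for Ctla4 (r = 0.92). Without the 2 tumours farthest from the checkpoint gene's median, r was 0.77 for Rbm48, 0.85 for Arf5 and 0.94 to 0.98 for the others.

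**Figure D4:**
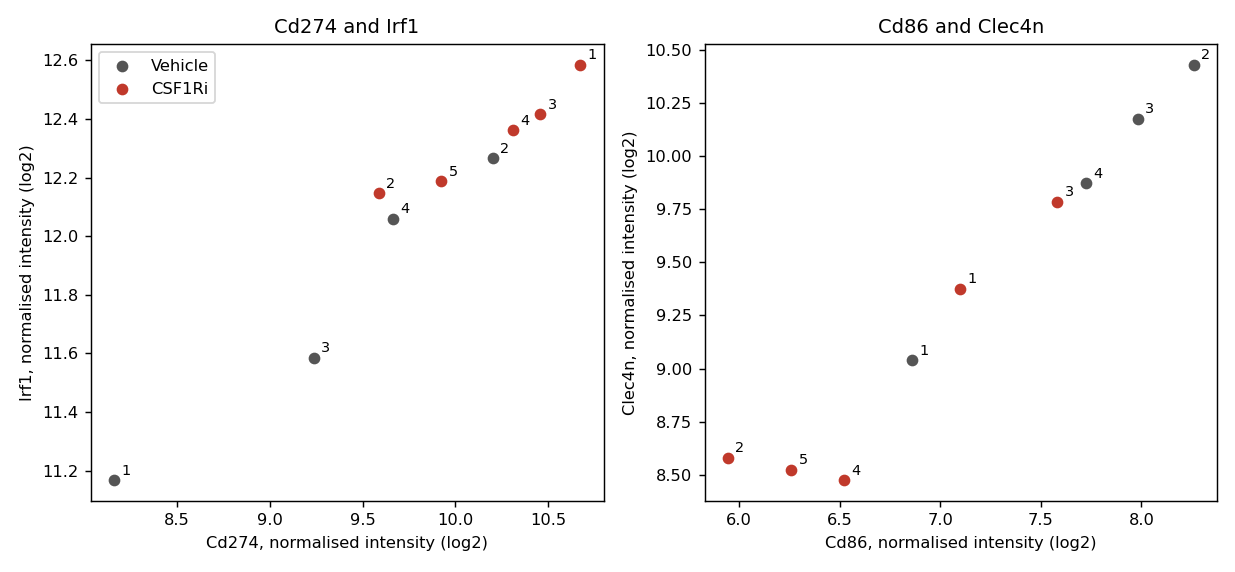
Normalised intensity (log2) of Cd274 against Irf1 (left) and of Cd86, probe ILMN_2743244, against Clec4n (right), 1 point per tumour with its number, grey for Vehicle and red for CSF1Ri. Irf1 and Cd274 lie along 1 line through both groups (r = 0.98), with Vehicle 1 at its lower end, and Clec4n and Cd86 do so with CSF1Ri 2, 4 and 5 at the lower end (r = 0.98).

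Among the checkpoint genes themselves, 36 pairs were compared in the same way, and r ran from -0.62 to 0.81. The pairs above 0.7 were Lag3 with Pdcd1lg2 (r = 0.81, and 0.72 without Vehicle 1) and Lag3 with Cd274 (r = 0.74, and 0.61 without Vehicle 1). The first of these rests on a Pdcd1lg2 probe near the detection limit, detected in 4 of 9 tumours. The receptor Havcr2 and its described ligand Lgals9 had the lowest r, which went from -0.62 to 0.79 without Vehicle 2 and CSF1Ri 3 and therefore rests on those tumours. Cd274 and Cd86, the 2 ligands with the widest group differences, had r = 0.09 over the 9 tumours and r = 0.83 for the deviations from the group means. Within the groups the tumours with more Cd274 thus tended to have more Cd86, while the group means differed in opposite directions.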

How the data were processed

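The deposited table holds, for each of 12 arrays and 45281 probes, an intensity and the authors' detection p-value, per the file headers. The intensity was already background-subtracted, since it falls below 0, and was not scaled between arrays. The authors' processed intensity table, on a linear scale, served as an alternative. The labels and headers name no software for these steps. The unscaled intensities were normalised by neqc of limma 3.58.1 (R 4.3.3; background from the detection p-values, offset 16, quantile normalization, log2), and arrays of a tumour were averaged. A probe was tested when detected (p-value under 0.05) on every array of at least 4 tumours, which left 16606. Groups were compared with limma (lmFit, eBayes, no covariate) and Benjamini-Hochberg adjustment over these probes at 0.05. SE is the moderated standard error. The offset understates fold changes of dim probes, and the number of arrays limits precision. Of all probes, 34885 carry exactly 1 symbol in the platform annotation, 18 carry several and 10378 carry none, and the RefSeq table (GRCm38.p6) changed 0 symbols. Genes were named by a rule: all checkpoint probes, Csf1r, up to 3 genes with the smallest p per list (by the brightest probe), and the 3 most similar profiles. For the epithelial, acinar and erythroid lists levels are given, and lists of B cell, neutrophil and fibroblast markers were also examined. Members and lists were chosen with earlier results of these data known. Alternatives covered background, normalization, filter, repeats, brightness, replicate number and each tumour left out. The fit was tested on simulated data.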

Additional observations from a re-analysis of the deposited data

How the results depend on the processing

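No checkpoint probe was called under any of the 22 alternatives. The smallest adjusted p (limma) was 0.215, for Cd86 without Vehicle 1. Cd274 stayed positive (0.49 to 1.27) and the 3 Cd86 probes, Cd80 and Havcr2 ILMN_2909597 stayed negative wherever they were fitted. Over all probes, the count of lower calls was 15 with median centring, 7 without the filter, 10 with the stricter filter, 46 with brightness (dimmer or brighter 6 arrays) as covariate, 1 on the dimmer and 8 on the brighter arrays, 1 with the replicate number as a block, and 6 to 33 on leaving out a tumour. The count of higher calls was 1 with normexp and an offset of 50, 3 with the brightest array set apart as covariate, 6 with the dimmer or brighter set as covariate, and 0 to 1 on leaving out a tumour. Signs turned on the brighter arrays for Havcr2 ILMN_2721929 (0.23), Tigit (-0.32), Pdcd1lg2 (-0.14) and Lgals9 (-0.047, -0.15 and -0.24). They also turned for Pdcd1lg2 with median centring (-0.050) and for Lgals9 ILMN_2752873 without the repeat arrays (-0.012), with the brightness set as covariate (-0.011) and on the dimmer arrays (-0.012). On leaving out each tumour, log2 fold changes ran across 0 for Ctla4 (-0.19 to 0.030), Lag3 (-0.12 to 0.26), Pdcd1lg2 (-0.061 to 0.13) and Lgals9 ILMN_2752873 (-0.058 to 0.11). The receptor median ran from -0.17 to 0.03 on leaving out each tumour and from -0.18 to -0.01 otherwise. The ligand median ran from -0.06 to 0.03 on leaving out each tumour and from -0.24 (brighter arrays) to 0.03 otherwise. The cause of these changes was not tested. Same-numbered tumours correlated at -0.06 to 0.19 in their deviations from the group means. These values have no reference spread beside them and cannot decide whether the numbers pair the tumours. The block leaves CSF1Ri 5 without a partner. The dimmer and brighter sets were chosen after seeing the data, because the planned split at the widest gap in brightness set 1 array apart, and no fit was possible on that array alone. Signal near background limits Pdcd1, Pdcd1lg2, Ctla4 and Tigit.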

Other observations

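CSF1Ri 1 and 3 resembled each other in several readings, though not in all lymphoid ones. The B cell gene Cd79b, the only B cell marker tested of 6 listed, was at 8.03 and 7.64 in these tumours and at 5.98 to 6.81 in the other 7. The mean of the T cell markers was 7.72 and 8.00 in them and 6.61 to 7.45 in the others. Lag3 (6.72 and 6.79, with 6.69 in Vehicle 2) and Cd274 (10.67 and 10.46) were at their highest there too. The mean of the NK cell markers was 7.18 and 6.76 in them but 6.96 in Vehicle 2, and Tigit was highest in CSF1Ri 2 (5.55). CSF1Ri 1 and 3 were singled out after their values were seen, and no test was made.

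The neutrophil markers, of which 8 of 9 were tested, had a median log2 fold change of -1.73 without a call, with tumour means of 6.94 to 9.66 in Vehicle and 6.01 to 8.04 in CSF1Ri tumours. Vehicle 1, lowest in Cd274, was highest in them. The fibroblast markers had a median of -0.14 over 9 genes.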
